A study of Homo sapiens with 18 samples.

Results

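Aminoacyl-tRNA synthetases were followed as 1 gene group in PANC-1 cells, an established epithelial line from a human pancreatic ductal carcinoma, after knockdown or inhibition of protein kinase R (PKR, gene EIF2AK2). The group was set by gene name, with the older symbols that the expression tables carry (GARS, MARS and the like), and holds 36 of the 26485 genes listed, 20 cytosolic and 16 mitochondrial. It was chosen with earlier results of these data known. All 36 were present in both tables. The gene for a second threonyl enzyme, TARSL2, stood outside the group and was kept in a list of partner genes.

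Each synthetase joins 1 amino acid to its transfer RNAs, the step that fixes what a codon is read as. The cytosol and the mitochondrion mostly use separate enzymes from separate nuclear genes, but GARS and KARS each serve both, the cytosolic EPRS charges both glutamate and proline, and mitochondrial glutaminyl-tRNA is made from glutamyl-tRNA by the amidotransferase QRSL1, GATB and GATC. Several cytosolic synthetases are bound in the multisynthetase complex. PKR is a double-stranded RNA sensor and 1 of the kinases of the translation factor eIF2 alpha. Phosphorylated eIF2 alpha favours translation of the transcription factor ATF4, whose known targets include many cytosolic synthetase genes along with genes of amino acid synthesis and uptake. WARS is also known as an interferon-induced gene.

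RNA was sequenced in 18 poly(A) libraries, 3 for each of 6 groups. The first run held cells harvested 72 h after transfection of 1 siRNA each, either of 2 against PKR (PKR siRNA 1, PKR siRNA 2) or a control siRNA. The second held cells harvested 72 h after DMSO, the PKR inhibitor C16 at 400 nM, or C16 at 800 nM. Each run was normalized on its own, so tests were made only within a run, and knockdown and inhibitor cannot be told apart from the run. The labels give only the run number, and what a run stands for is not given in the sources used here. All groups came from a single cell line, and the control siRNA libraries serve both siRNA comparisons as the DMSO libraries serve both doses. Whether the replicates came from separate cultures is not given in the sources used here, so p-values measure only the spread between these libraries. In RNA from a whole culture, fewer cells with a transcript and less of it per cell cannot be told apart.

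Reads assigned to genes were few, from 1512940 to 1873906 per library in the siRNA run and from 894145 to 1474308 in the C16 run. The targeted gene followed the labels. EIF2AK2 stood at 95.5, 93.5 and 103 normalized counts after control siRNA, at 10.0, 13.6 and 9.65 after PKR siRNA 1 and at 7.96, 8.58 and 9.40 after PKR siRNA 2. Its log2 fold change was -3.04 and -3.35 (SE 0.25 each, adjusted p = 4.69e-18 and 2.58e-20), and under C16, which acts on the kinase, it differed from DMSO by -0.22 at 400 nM and 0.01 at 800 nM (adjusted p = 0.35 and 0.974). The epithelial keratins KRT8, KRT18 and KRT19 were at 519.5 normalized counts or more in every library, KRT7, CDH1 and EPCAM were lower (medians of 4.77 to 24.5 in the 2 tables), and of the leukocyte, endothelial and fibroblast markers PTPRC, CD3E and DCN were at 0 in every library and COL3A1 was the highest, at most at 30.5. The epithelial markers moved with the siRNA groups, and not alike: KRT8 was at 2503 to 2571 in control siRNA, 1246 to 1347 after PKR siRNA 1 and 4730 to 5105 after PKR siRNA 2, CDH1 at 16.1 to 22.6, 9.07 to 14.4 and 50.8 to 61.7, and EPCAM at 83.2 to 120, 10.6 to 14.4 and 9.40 to 11.9. In the C16 run EPCAM was at 16.2 to 32.4 and CDH1 at 13.4 to 35.8. Their part in the results below was not tested.

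A gene is called raised or lowered below where the adjusted p was under 0.05 and the fold change over 1.5. Changes are log2 fold changes of the normalized count plus 1, given with their standard error (SE).

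In control cells the cytosolic synthetases were the more abundant class, per kilobase of exon. Across the 3 control siRNA libraries the 20 cytosolic genes ranged from 44.4 to 289 normalized counts per kb around a median of 108, and the 16 mitochondrial genes from 4.05 to 89.9 around a median of 20.9. In DMSO the medians per kb were 69.5 and 17.2. GARS, the glycyl enzyme of both compartments, headed both orders with 289 ± 25.3 per kb in control siRNA and 180 ± 12.2 in DMSO (SD, n = 3 each), apart from the gene that followed. TARS (171 ± 15.0 per kb) and MARS (166 ± 4.34) came next in control siRNA and overlapped with each other. Most of the order was not resolved, since 24 of the 35 neighbouring genes overlapped in their 3 libraries in either control group.

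Mitochondrial IARS2, the isoleucyl enzyme, was the exception at the top of its class, with 89.9 ± 6.34 per kb in control siRNA, above 8 cytosolic genes by its mean, and 90.3 ± 6.66 per kb in DMSO, above 16 of them. SARS2 (73.9 ± 2.19 per kb) also stood among the cytosolic genes, whereas cytosolic SARS (44.4 ± 4.74 per kb) was the lowest of its own class in control siRNA. MARS2, FARS2, PARS2 and WARS2 closed the order in control siRNA at 4.05 to 6.43 per kb. WARS2 was covered by only 6 to 22 reads per library in the siRNA run, PARS2 by 7 to 20, FARS2 by 9 to 28 and MARS2 by 17 to 41. In that run values of these 4 genes carry the largest counting error. The C16 run was shallower, and there MARS2 was at a mean of 13.8 normalized counts in DMSO. AARS2 was at a mean of 16.5 with 800 nM C16, so its values there also carry a large counting error. VARS and VARS2, inside the major histocompatibility region of chromosome 6, were listed with exons on 7 and 6 sequences and CARS on 2, the primary chromosome included, and levels per kb were computed from the exons of the primary chromosome alone. How reads that match more than 1 of these sequences were counted is not given in the sources used here.

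**Figure D1:**
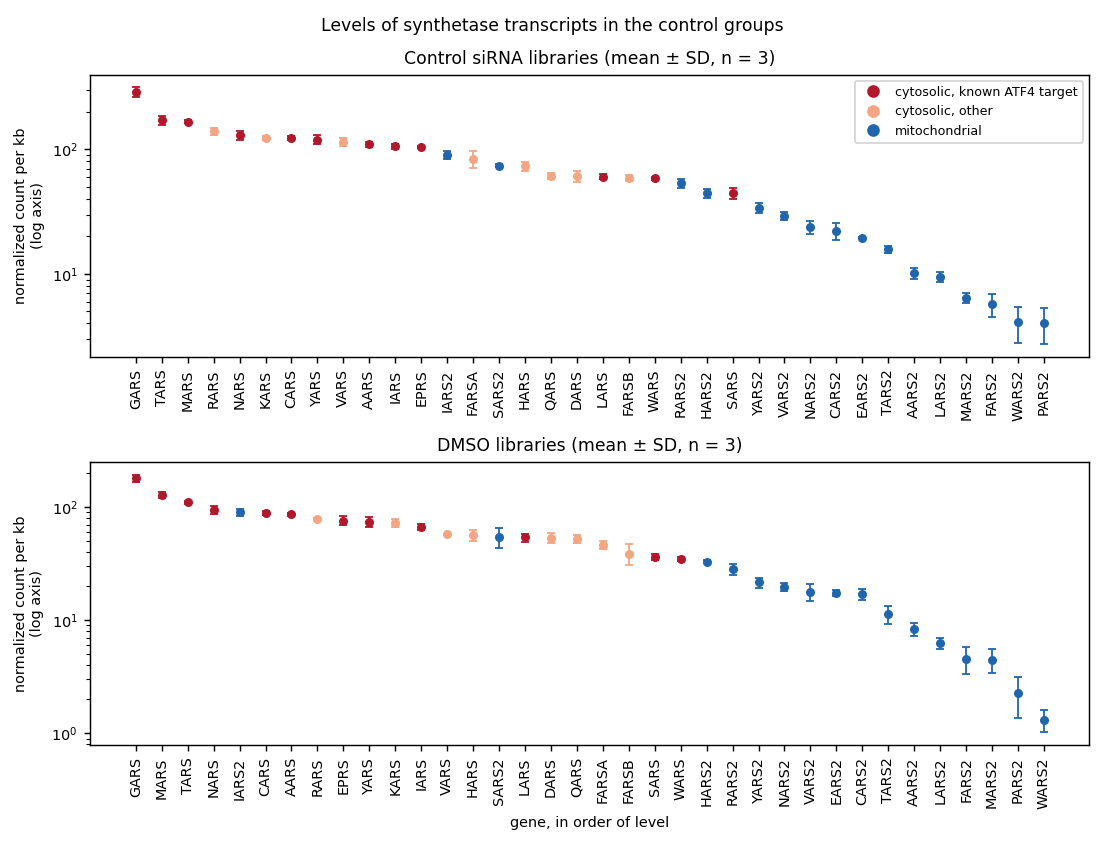
Normalized counts per kilobase of exon (log axis) of the 36 synthetase genes in the control siRNA libraries (top) and the DMSO libraries (bottom), as mean ± SD of 3 libraries, in order of level and coloured by class. Cytosolic genes fill the left of both orders, with IARS2 and SARS2 among them, and the lowest genes on the right are all mitochondrial.

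Summed over each class, the balance of cytosolic to mitochondrial transcripts differed between the groups of each run. The cytosolic sum was 2251, 2105 and 2248 per kb in control siRNA, 2543, 2620 and 2574 after PKR siRNA 1 and 2031, 2004 and 2030 after PKR siRNA 2. The mitochondrial sum was 452, 435 and 451 per kb in control siRNA, 435, 445 and 440 after PKR siRNA 1 and 534, 542 and 535 after PKR siRNA 2. PKR siRNA 1 therefore had the higher cytosolic sum with an overlapping mitochondrial sum, and PKR siRNA 2 the lower cytosolic and the higher mitochondrial sum. The ratio of the sums was 4.83 to 4.98 in control siRNA, 5.84 to 5.89 with PKR siRNA 1 and 3.70 to 3.80 with PKR siRNA 2. With C16 the ratio went from 4.31 to 4.57 in DMSO to 6.41 to 6.81 at 400 nM and 5.83 to 5.92 at 800 nM. The cytosolic sum per kb accounted for most of that, with 1462 to 1506 in DMSO, 1955 to 2000 at 400 nM and 1919 to 1936 at 800 nM, while the mitochondrial sum was 330 to 344, 294 to 305 and 327 to 330. GARS and KARS serve both compartments but were summed as cytosolic. GARS alone went from a mean of 179.7 per kb in DMSO to 329 at 400 nM and 318.5 at 800 nM. Sums weigh abundant genes most and are given as descriptions, with no test.

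**Figure D2:**
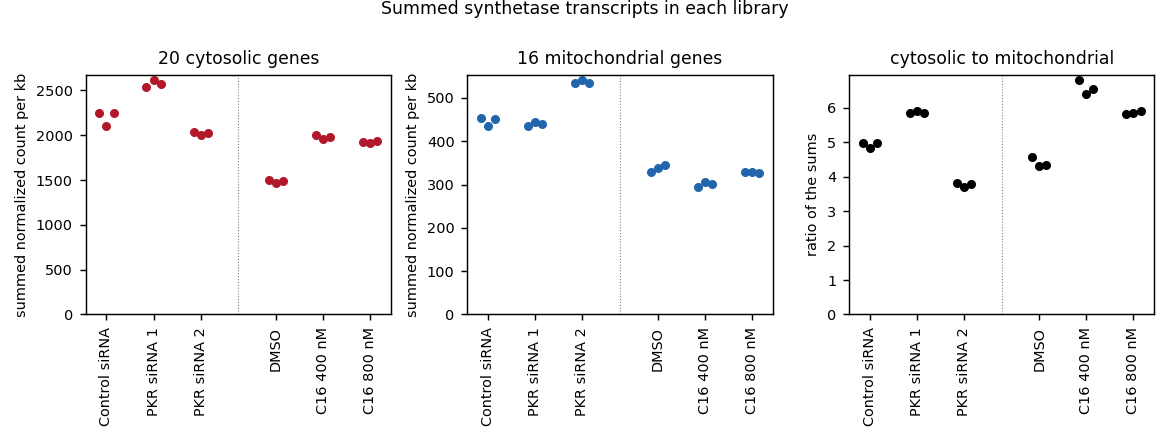
Summed normalized counts per kb of the 20 cytosolic genes (left) and the 16 mitochondrial genes (middle) and the ratio of the sums (right), 1 point per library, with the siRNA run left and the C16 run right of the dotted line. The ratio is lowest with PKR siRNA 2 (3.70 to 3.80) and highest with 400 nM C16 (6.41 to 6.81); the runs were normalized separately.

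With PKR siRNA 1, 10 of 20 cytosolic and 2 of 16 mitochondrial synthetase transcripts were higher than in control siRNA by adjusted p. SARS, the seryl enzyme (0.71), HARS, the histidyl enzyme (0.70), and CARS, the cysteinyl enzyme (0.62), were raised among the 20 cytosolic genes, and MARS2, the mitochondrial methionyl enzyme (0.85), among the 16 mitochondrial ones. No member was lowered by limma, edgeR or DESeq2, though 5 were lower at an unadjusted p under 0.05. The 4 raised members were 11.1% of 36, beside 8.53% raised and 12.6% lowered among all 10593 genes tested, so this count was near the background for rises.

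Most changes were smaller than 1.5-fold. Beside the genes that were higher, 2 cytosolic genes and 1 mitochondrial gene were lower by adjusted p alone, and of all genes 21.1% were higher and 23.9% lower. The median change was 0.19 for cytosolic and -0.08 for mitochondrial genes, and -0.01 for all genes tested. Without PKR siRNA 1 replicate 1 the mitochondrial median turned to 0.016. Among the 12 cytosolic genes known as ATF4 targets, 8 were higher and 1 lower by adjusted p, with a median of 0.30. This list was written from memory with earlier results of these data known, and was not compared with a published copy. EPRS (0.55 ± 0.06), MARS (0.44 ± 0.06), AARS (0.38 ± 0.07) and GARS (0.31 ± 0.06) were among the 8. IARS, also a known ATF4 target, was lower (-0.32 ± 0.07, adjusted p = 4.92e-05). The 8 other cytosolic genes had a median of -0.05, with HARS and VARS (0.36 ± 0.07) higher and KARS, the lysyl enzyme, lower (-0.36 ± 0.08, adjusted p = 0.00013).

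With PKR siRNA 2, the classes lay the other way round. The raised members were all mitochondrial: FARS2, the phenylalanyl enzyme (0.86), MARS2 (0.77) and EARS2, the glutamyl enzyme (0.70). None was lowered by limma, edgeR or DESeq2 (9 were lower at an unadjusted p under 0.05), and the 3 were 8.33% of 36 beside 10.8% raised and 12.8% lowered among all genes. By adjusted p alone, 8 of 16 mitochondrial genes were higher and 1 lower, and 2 of 20 cytosolic genes were higher and 8 lower, beside 22.1% and 25.2% of all genes. The median was 0.32 for mitochondrial and -0.09 for cytosolic genes. IARS2 (0.48 ± 0.07), NARS2 (0.40 ± 0.15), LARS2 (0.39 ± 0.17), HARS2 (0.28 ± 0.11) and SARS2 (0.27 ± 0.10) made up the mitochondrial genes that were higher by adjusted p without reaching 1.5-fold, and RARS2 was lower (-0.43 ± 0.13). FARSA, a subunit of the cytosolic phenylalanyl enzyme (-0.56 ± 0.11), WARS (-0.54 ± 0.10), YARS (-0.48 ± 0.07) and VARS (-0.34 ± 0.07) were the cytosolic genes furthest below control. AARS (0.33 ± 0.07) and SARS (0.24 ± 0.08) were the 2 cytosolic genes above it by adjusted p.

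The 2 PKR siRNAs were compared directly, which tests the difference between them. The control libraries entered this comparison only through the shared estimate of the spread and the filter on low values. Against PKR siRNA 1, PKR siRNA 2 had 6 lowered members, all cytosolic, and 4 raised members, all mitochondrial. The lowered genes were HARS (-0.80), YARS (-0.72), VARS (-0.70), MARS (-0.68), CARS (-0.63) and FARSA (-0.61), and the raised genes were WARS2 (1.24), NARS2 (0.81), CARS2 (0.61) and EARS2 (0.61). The lowered genes were 6 of 20 in the cytosolic class and the raised genes 4 of 16 in the mitochondrial class, beside 15.3% lowered and 16.4% raised among all genes. By adjusted p alone, 13 of 20 cytosolic genes were lower and 3 higher, and 8 of 16 mitochondrial genes were higher and 1 lower, where 29.3% of all genes were lower and 27.7% higher. The class medians were -0.41 and 0.31, with -0.01 for all genes. The 3 cytosolic genes that were higher with PKR siRNA 2 were KARS (0.45 ± 0.08), IARS (0.25 ± 0.07) and DARS (0.22 ± 0.09). The mitochondrial gene that was lower was TARS2 (-0.46 ± 0.17).

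With C16 at 400 nM, 7 members were raised and 3 lowered against DMSO. GARS (0.87), SARS (0.79), CARS (0.77), YARS, the tyrosyl enzyme (0.77), and WARS, the tryptophanyl enzyme (0.73), were the raised cytosolic genes, and MARS2 (0.88) and VARS2, the valyl enzyme (0.64), the raised mitochondrial ones. AARS2, the mitochondrial alanyl enzyme (-0.75), HARS2 (-0.61) and cytosolic DARS, the aspartyl enzyme (-0.69), were lowered. FARS2, PARS2 and WARS2 were below the mean of 10 normalized counts that a gene needed to be tested, which left 33 members. Raised members were 21.2% and lowered members 9.09% of the 33, beside 7.08% and 5.45% of 9963 genes tested.

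The raised cytosolic genes at 400 nM all belonged to the known ATF4 targets, of which 5 of 12 (41.7%) were raised and none lowered. By adjusted p alone 10 of these 12 were higher, the others being IARS (0.14 ± 0.08, adjusted p = 0.207) and LARS, the leucyl enzyme (0.05 ± 0.09, adjusted p = 0.732). Over all 20 cytosolic genes 12 were higher and 1 lower, and over 13 mitochondrial genes 2 were higher and 5 (38.5%) lower, beside 14.6% and 11.9% of all genes. The medians were 0.43 for the known ATF4 targets, 0.03 for the other cytosolic genes, -0.09 for the mitochondrial genes and 0.00 for all genes. The division of the cytosolic genes was made with earlier results of these data known, so these values describe the lists and do not test them.

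C16 at 800 nM raised 7 members and lowered 3. The raised genes were GARS (0.83), VARS (0.70), YARS (0.64), WARS (0.63) and CARS (0.61) in the cytosol and VARS2 (0.98) and MARS2 (0.94) in the mitochondrion, and the lowered ones AARS2 (-1.25), SARS2, the mitochondrial seryl enzyme (-1.12), and DARS (-0.90). Raised and lowered members again made up 21.2% and 9.09% of 33, here beside 11.6% and 14.1% of all genes. By adjusted p, 13 cytosolic genes were higher and 1 lower, and 3 mitochondrial genes were higher and 4 lower, beside 22.3% and 22.6% of all genes. The medians were 0.34 for cytosolic and 0.01 for mitochondrial genes. AARS, which was higher at 400 nM (0.26 ± 0.08, adjusted p = 0.0166), differed from DMSO by -0.12 ± 0.08 at 800 nM (adjusted p = 0.255).

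Between the 2 doses of C16, no member was raised and none lowered by limma, edgeR or DESeq2, where 1.13% of all genes were raised and 3.95% lowered. By adjusted p alone 2 members were higher at 800 nM, IARS2 (0.42 ± 0.08) and RARS, the arginyl enzyme (0.34 ± 0.10), and 4 lower, SARS2 (-0.55 ± 0.14), AARS (-0.37 ± 0.08), SARS (-0.30 ± 0.09) and MARS (-0.22 ± 0.07), beside 5.09% and 9.18% of all genes. At an unadjusted p under 0.05 these counts were 5 and 7. For GARS the difference between doses was -0.05, with a 95% interval of -0.18 to 0.09, for CARS -0.16 (-0.32 to -0.01) and for MARS2 0.06 (-0.44 to 0.56).

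**Figure D3:**
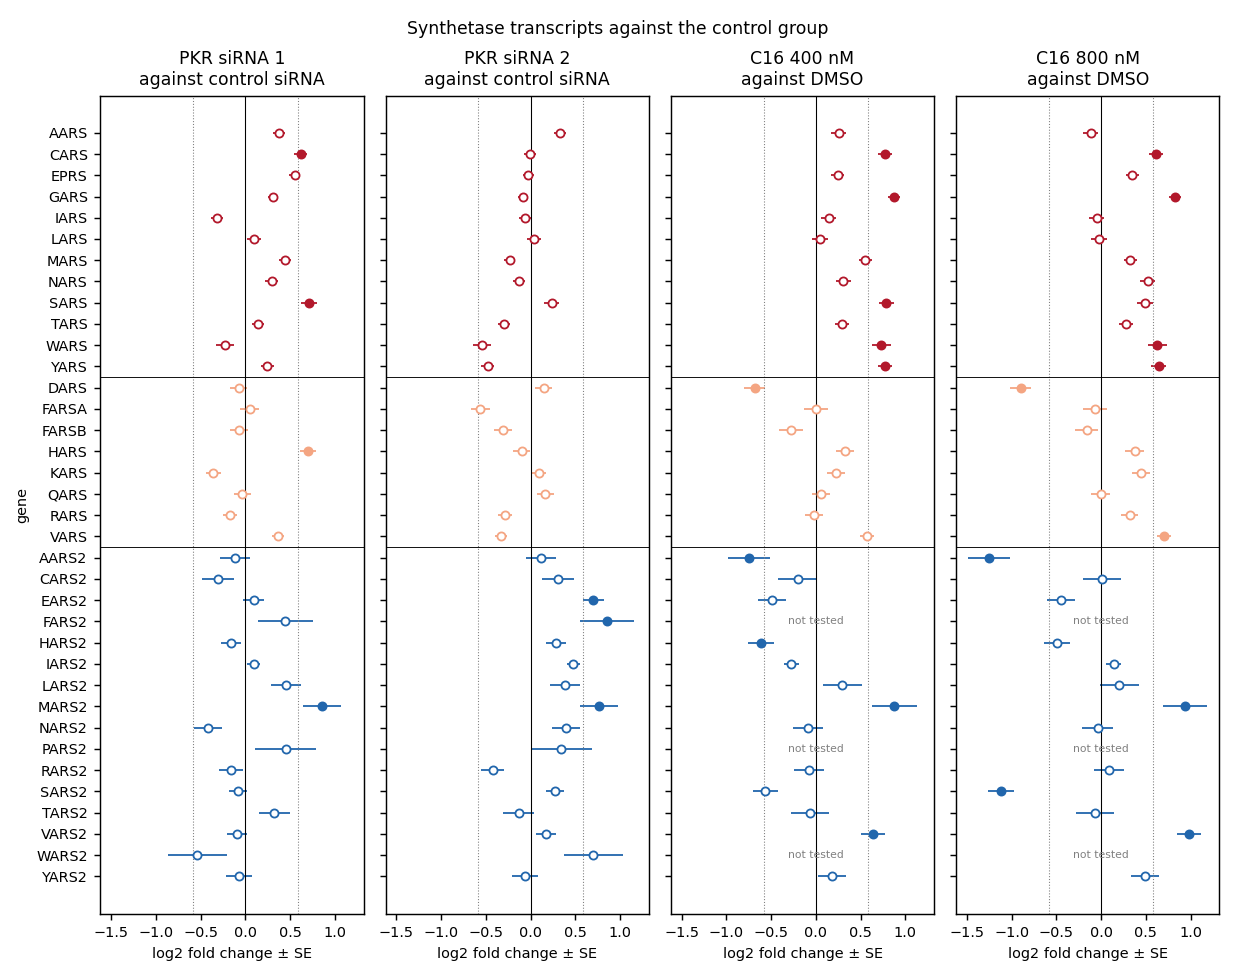
Log2 fold change ± SE of each synthetase gene in the 4 comparisons with a control group, coloured as dark red for cytosolic known ATF4 targets, orange for other cytosolic genes and blue for mitochondrial genes. Filled points passed both thresholds, dotted lines mark a 1.5-fold change, and MARS2 is the only gene filled in all 4 panels.

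Of the 36 members, 21 were neither raised nor lowered in any of the 4 comparisons with a control group, 6 were called in 1 and 9 in at least 2, and none was raised in 1 comparison and lowered in another. By adjusted p alone, 12 members went both ways across the 4 comparisons, YARS among them. The same counts were not made over all genes tested, so these cannot be read as particular to the synthetases.

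MARS2 was raised in all 4 of these comparisons. It is a gene of 1 exon at chr2:197705304-197708390 on hg38. Its normalized counts were 19.5, 18.3 and 21.8 in control siRNA, 43.3, 33.6 and 33.8 after PKR siRNA 1 and 40.8, 33.2 and 30.1 after PKR siRNA 2, so every PKR siRNA library lay above every control library. In the C16 run they were 13.6, 17.1 and 10.7 in DMSO, 27.7, 20.8 and 29.8 at 400 nM and 29.3, 26.8 and 24.8 at 800 nM, again without overlap with DMSO. Such separation was common, since 24.5% of all genes tested lay wholly above control with PKR siRNA 1 and 25.9% with PKR siRNA 2. With C16 these shares were 20.4% at 400 nM and 26.1% at 800 nM. The changes of MARS2 were 0.85 ± 0.21 (adjusted p = 0.000643), 0.77 ± 0.21 (0.002), 0.88 ± 0.25 (0.00605) and 0.94 ± 0.25 (0.00171). With DESeq2 the rise at 400 nM missed the p threshold (log2 0.92, adjusted p = 0.0543). Cytosolic MARS, by contrast, was higher with PKR siRNA 1 (0.44), lower with PKR siRNA 2 (-0.24 ± 0.06, adjusted p = 0.00143) and higher with C16 (0.55 and 0.33), short of 1.5-fold in each.

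CARS was raised in 3 of the 4 comparisons. It lies at chr11:3000922-3057451 on the minus strand. Its counts were 353, 358 and 337 in control siRNA, 492, 566 and 554 after PKR siRNA 1 and 323, 351 and 370 after PKR siRNA 2, so that only PKR siRNA 1 stood apart. In the C16 run they were 248, 245 and 265 in DMSO, 424, 444 and 429 at 400 nM and 396, 386 and 375 at 800 nM. The rises were 0.62 ± 0.07 (PKR siRNA 1, adjusted p = 8.25e-12), 0.77 ± 0.08 (400 nM, 3.16e-12) and 0.61 ± 0.08 (800 nM, 2.16e-09), and PKR siRNA 2 differed from control by -0.01 ± 0.07 (0.944). Without PKR siRNA 1 replicate 2 the first of these was 0.58, under 1.5-fold.

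Of the members described by library whose promoter was found, MARS and CARS held a C/EBP-ATF response element core in it. ATF4 is known to bind sites of this type. The core was searched as TGATGNAA on both strands in RefSeq promoters of GRCh38.p14 (250 bases before to 50 after the start of a gene). Here are those 2 promoters, 5′ to 3′ on the strand of the gene, with the match in capitals, CARS at chr11:3057374-3057673 on the minus strand and MARS at chr12:57487818-57488117 on the plus strand.
CARS: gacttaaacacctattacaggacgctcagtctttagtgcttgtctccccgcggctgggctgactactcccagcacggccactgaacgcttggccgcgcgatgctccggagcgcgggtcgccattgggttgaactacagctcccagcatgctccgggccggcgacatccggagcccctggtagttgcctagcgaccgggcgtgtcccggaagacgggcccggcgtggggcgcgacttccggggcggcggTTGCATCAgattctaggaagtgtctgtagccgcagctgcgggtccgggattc
MARS: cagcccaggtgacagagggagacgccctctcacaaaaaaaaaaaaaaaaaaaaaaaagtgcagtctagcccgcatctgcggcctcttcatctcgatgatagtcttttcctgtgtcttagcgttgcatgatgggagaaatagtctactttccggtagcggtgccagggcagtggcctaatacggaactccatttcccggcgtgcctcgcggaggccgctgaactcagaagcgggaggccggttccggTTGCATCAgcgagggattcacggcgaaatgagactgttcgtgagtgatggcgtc
The match began at base -2 in CARS and -4 in MARS, counted from the start site, and lay on the opposite strand in both. Promoters were found for 30 of the 36 members. LARS, YARS, DARS, VARS, AARS2 and VARS2 had none and were not searched. Among the known ATF4 targets 6 of 10 promoters held the core, among the other cytosolic genes 0 of 6 and among the mitochondrial genes 1 of 14, beside 3.63% of 34796 distinct promoters of all genes. The 4 further matches in the known ATF4 targets are shown with 11 bases on either side, to compare the site itself.
AARS: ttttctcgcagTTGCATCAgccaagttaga
IARS: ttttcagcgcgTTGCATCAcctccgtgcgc
NARS: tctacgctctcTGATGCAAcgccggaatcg
TARS: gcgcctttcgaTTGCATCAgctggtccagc
They began at -187, -13, 15 and 3, and with CARS and MARS all 6 read the same 8 bases, on the opposite strand except in NARS. These 6 genes did not move alike, since CARS was raised in 3 comparisons with a control and IARS in none, while GARS, SARS and WARS were raised with no match in this window. The mitochondrial match was in YARS2, which was called in no comparison. A gamma-activated site, a site type of interferon-induced genes, was searched as TTCNNNGAA and was found in 2 of 10, 0 of 6 and 2 of 14 promoters of the same classes, beside 7.67% of all promoters. CARS, TARS, PARS2 and WARS2 held it and WARS did not, in this window. A match is a description of the letters only.

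SARS was raised with PKR siRNA 1 and with 400 nM C16. It read 201, 206 and 244 normalized counts in control siRNA, 354, 405 and 310 after PKR siRNA 1 and 258, 244 and 263 after PKR siRNA 2. In the C16 run it read 188, 167 and 174 in DMSO, 308, 289 and 317 at 400 nM and 240, 245 and 260 at 800 nM. Both treated groups of each run lay above or level with the highest control library, with the larger rise in PKR siRNA 1 (0.71 ± 0.08, adjusted p = 3.76e-11) and 400 nM (0.79 ± 0.09, 1.09e-10), and PKR siRNA 2 and 800 nM were at 0.24 ± 0.08 (0.0166) and 0.49 ± 0.09 (5.3e-06). Each of these pairs also differed directly, by -0.47 ± 0.08 between the siRNAs (adjusted p = 1.58e-06) and -0.30 ± 0.09 between the doses (0.0157).

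SARS2, the mitochondrial counterpart, went the other way with C16. Its counts were 109, 97.1 and 142 in DMSO, 77.6, 85.3 and 69.2 at 400 nM and 54.5, 46.3 and 56.3 at 800 nM, so that the 3 groups did not overlap. The change was -0.57 ± 0.14 at 400 nM (adjusted p = 0.00173, under 1.5-fold), -1.12 ± 0.14 at 800 nM (2.13e-09) and -0.55 ± 0.14 between the doses (0.00476). Among the siRNA libraries it read 156, 163 and 155 in control siRNA, 139, 165 and 144 after PKR siRNA 1 and 179, 193 and 201 after PKR siRNA 2. The log2 ratio of SARS to SARS2 was higher than in DMSO by 1.36 at 400 nM and 1.61 at 800 nM, with no overlap between libraries (exact permutation p = 0.1, two-sided, the smallest that 3 against 3 allows). SARS2 shares 189 exon bases, 8.80% of its own, with MRPS12 on the opposite strand, and whether reads were counted by strand is not given in the sources used here.

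GARS was raised by both C16 doses. It read 500, 524 and 458 in DMSO, 945, 852 and 916 at 400 nM and 847, 898 and 882 at 800 nM. In the knockdown run it read 792, 728 and 867 in control siRNA, 972, 977 and 995 after PKR siRNA 1 and 769, 730 and 745 after PKR siRNA 2. Both doses raised this most abundant of the synthetase transcripts (0.87 ± 0.07, adjusted p = 1.23e-16, and 0.83 ± 0.07, 4.22e-16). PKR siRNA 1 gave a smaller difference (0.31 ± 0.06, adjusted p = 5.71e-06) and PKR siRNA 2 none that passed the test (-0.09 ± 0.06, 0.214).

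YARS and WARS rose with C16 and were lower with PKR siRNA 2. YARS read 256, 223 and 215 in DMSO, 406, 413 and 367 at 400 nM and 340, 369 and 375 at 800 nM. In the siRNA run YARS was at 407, 347 and 366 in control siRNA, 425, 454 and 444 after PKR siRNA 1 and 278, 265 and 259 after PKR siRNA 2. Both C16 groups thus lay above DMSO (0.77 ± 0.08, adjusted p = 3.02e-11, and 0.64 ± 0.08, 2.89e-09), and the 2 siRNAs lay on opposite sides of control (0.24 ± 0.07, 0.00446, and -0.48 ± 0.07, 5.22e-08, both under 1.5-fold). YARS shares 248 exon bases, 8.0% of its own, with S100PBP on the opposite strand.

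WARS read 99.1, 107 and 107 in DMSO, 166, 168 and 186 at 400 nM and 143, 174 and 168 at 800 nM, with no overlap between DMSO and either dose. Among the siRNA libraries it read 174, 170 and 178 in control siRNA, 140, 162 and 145 after PKR siRNA 1 and 113, 117 and 127 after PKR siRNA 2. WARS rose by 0.73 ± 0.11 (400 nM, adjusted p = 1.84e-07) and 0.63 ± 0.11 (800 nM, 1.95e-06, but 0.57 without C16 800 nM replicate 2), and was lower with PKR siRNA 2 (-0.54 ± 0.10, 5.04e-06). Of the 10 interferon-induced genes listed 7 were tested, and none was raised in any comparison with a control. Lowered were 2 with PKR siRNA 1 (28.6%), 3 with PKR siRNA 2 (42.9%), 1 at 400 nM (14.3%) and 4 at 800 nM (57.1%). Of all genes 12.6%, 12.8%, 5.45% and 14.1% were lowered, in the same order. With PKR siRNA 1 the changes of this list reached down to -1.235. IRF1 was lowered by both siRNAs (-0.69 ± 0.19 for the first, -1.09 ± 0.19 for the second), and PSMB9 and IFIT1 by PKR siRNA 2. With 800 nM C16, PSMB9 (-1.79 ± 0.34), IFIT3 (-1.65 ± 0.29), IFI6 and IFIT1 were lowered. WARS was raised by both doses and no tested gene of this list was. Whether interferon signalling had a part in the WARS changes was not tested.

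**Figure D4:**
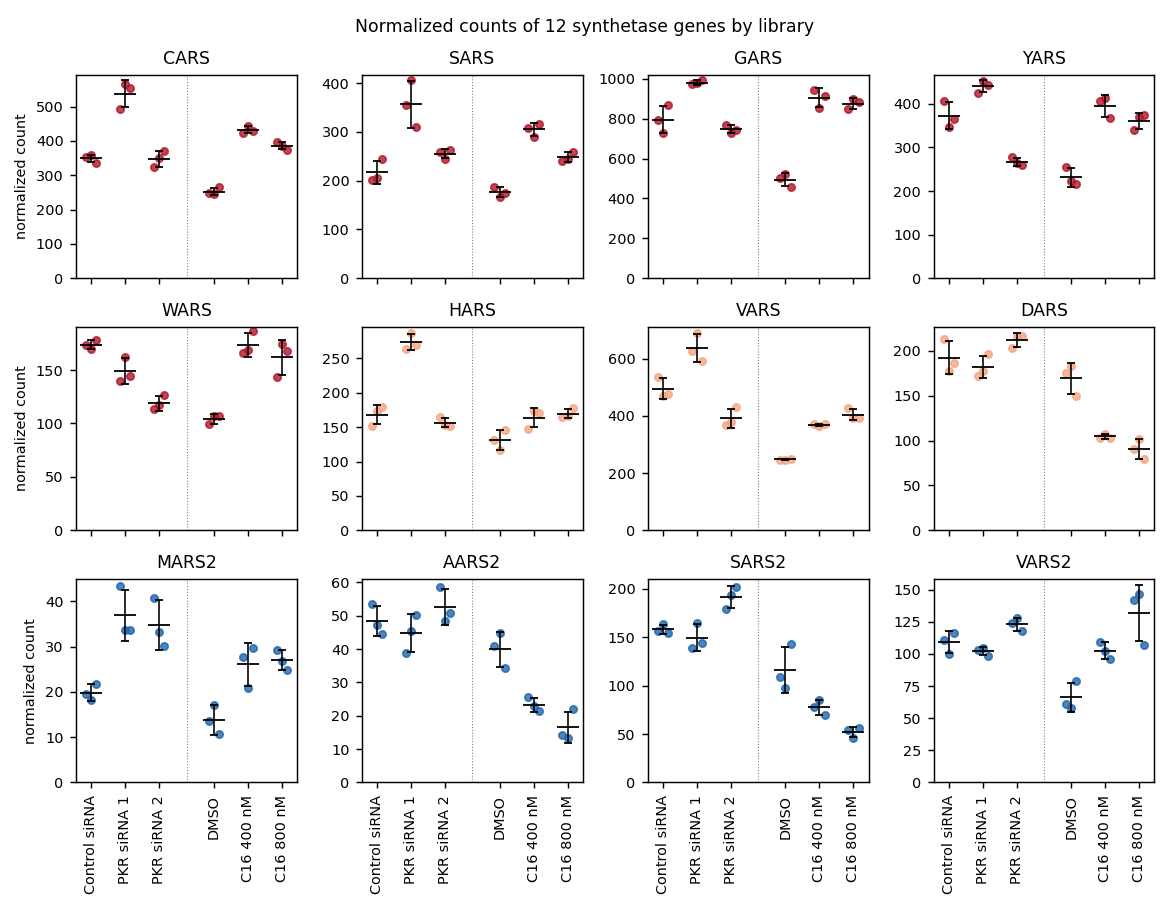
Normalized counts of 12 synthetase genes in each library (points), with the mean ± SD of 3 libraries (black), for the siRNA run left and the C16 run right of each dotted line; colours are as in the plot of fold changes and each axis starts at 0. MARS2 lies above its controls in both runs, CARS and SARS are highest with PKR siRNA 1 and 400 nM C16 in their runs, and DARS, AARS2 and SARS2 fall with C16.

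HARS was raised with PKR siRNA 1 and with no other treatment. Its counts were 152, 174 and 179 in control siRNA, 264, 288 and 269 after PKR siRNA 1 and 164, 153 and 152 after PKR siRNA 2, so PKR siRNA 1 stood apart from both other groups (0.70 ± 0.09, adjusted p = 5.65e-10, and a difference of -0.80 ± 0.09 between the siRNAs, 2.99e-12). In the C16 run HARS read 131, 116 and 145 in DMSO, 148, 173 and 171 at 400 nM and 165, 166 and 177 at 800 nM, higher by 0.33 ± 0.10 and 0.38 ± 0.10 (adjusted p = 0.0155 and 0.0026). HARS2 lies head to head with HARS on chromosome 5 and shares 302 exon bases with it on the opposite strand, 11.6% of the exon bases of HARS2. HARS2 read 83.6, 86.7 and 88.3 in DMSO, 71.3, 46.1 and 53.2 at 400 nM and 65.6, 54.8 and 63.0 at 800 nM. It was lowered at 400 nM (-0.61 ± 0.15, adjusted p = 0.00131) and lower by adjusted p at 800 nM (-0.49 ± 0.15, 0.00588), opposite to HARS. The call at 400 nM was lost with a pseudocount of 5 (-0.58) and without replicate 2 (-0.48) or 3 (-0.58) of that group. With PKR siRNA 1 the log2 ratio of HARS to HARS2 was higher than in control by 0.86 (exact permutation p = 0.1), and with PKR siRNA 2 lower by 0.39 (0.1).

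VARS rose with 800 nM C16 and differed between the siRNAs. It read 247, 248 and 249 in DMSO, 373, 366 and 370 at 400 nM and 427, 394 and 394 at 800 nM, where only the higher dose passed 1.5-fold (0.70 ± 0.08, adjusted p = 4.18e-11, against 0.57 ± 0.08, 3.31e-08). In the knockdown run VARS was at 537, 472 and 476 in control siRNA, 628, 690 and 593 after PKR siRNA 1 and 368, 377 and 431 after PKR siRNA 2. VARS was thus on either side of control with the 2 siRNAs, with a direct difference of -0.70 ± 0.07 (adjusted p = 8.42e-15).

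VARS2, its mitochondrial counterpart, read 61.2, 58.1 and 79.2 in DMSO, 110, 103 and 95.7 at 400 nM and 142, 146 and 107 at 800 nM. It rose by 0.64 ± 0.13 (adjusted p = 0.000145) and 0.98 ± 0.13 (8.62e-09), and without DMSO replicate 2 the value at 400 nM was 0.55. With the siRNAs VARS2 was at 111, 99.9 and 117 in control siRNA, 103, 104 and 98.4 after PKR siRNA 1 and 124, 128 and 118 after PKR siRNA 2, with no difference from control that passed the test.

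MARS was among the 4 cytosolic genes with the widest difference between the siRNAs. It read 499, 475 and 481 in control siRNA, 650, 688 and 638 after PKR siRNA 1 and 408, 395 and 433 after PKR siRNA 2, and in the C16 run 373, 348 and 394 in DMSO, 551, 548 and 534 at 400 nM and 474, 486 and 439 at 800 nM. No 2 groups of a run overlapped. The difference between the siRNAs was -0.68 ± 0.06 (adjusted p = 2.34e-15) and between the doses -0.22 ± 0.07 (0.0301). MARS shares 68 exon bases, 2.30% of its own, with DDIT3 on the opposite strand, and DDIT3 was raised in all 4 comparisons with a control, also with PKR siRNA 2 (0.83 ± 0.14), where MARS was lower.

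DARS, a member of the multisynthetase complex, was lowered by both C16 doses. It read 175, 183 and 150 in DMSO, 103, 107 and 103 at 400 nM and 90.8, 101 and 79.2 at 800 nM. The change was -0.69 ± 0.12 (adjusted p = 4.9e-06) and -0.90 ± 0.12 (3.44e-09). DARS shares 114 exon bases, 3.6% of its own, with DARS-AS1 on the opposite strand. In the siRNA run DARS was at 213, 177 and 187 in control siRNA, 172, 178 and 196 after PKR siRNA 1 and 203, 217 and 216 after PKR siRNA 2, and neither siRNA differed from control beyond the test (adjusted p = 0.519 and 0.192). DARS was the only lowered gene among the 8 synthetases of the complex in either C16 comparison, and none of the 8 was raised or lowered by an siRNA against control. KARS and RARS, also of the complex, were higher at 800 nM by adjusted p (0.44 ± 0.10 and 0.32 ± 0.10), and QARS, the glutaminyl enzyme, and LARS passed no threshold in any comparison.

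AARS2 was lowered by both C16 doses as well. It read 40.8, 44.8 and 34.3 in DMSO, 25.5, 23.1 and 21.3 at 400 nM and 14.1, 13.4 and 21.9 at 800 nM. AARS2 fell by 0.75 (SE 0.23, adjusted p = 0.0129) and by 1.25 (SE 0.23, 1.37e-05) on the log2 scale. The call at 400 nM was lost without DMSO replicate 2 (-0.66), without C16 400 nM replicate 3 (-0.69) and with DESeq2 (-0.79, adjusted p = 0.0551). Among the siRNA libraries AARS2 was at 53.4, 47.3 and 44.6 in control siRNA, 38.9, 45.4 and 50.2 after PKR siRNA 1 and 58.7, 48.3 and 50.8 after PKR siRNA 2, and the groups overlapped.

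EARS2 and FARS2 were raised with PKR siRNA 2. EARS2 read 82.1, 81.6 and 80.6 in control siRNA, 80.0, 94.3 and 86.8 after PKR siRNA 1 and 129, 133 and 136 after PKR siRNA 2, so PKR siRNA 2 stood apart from both other groups (0.70 ± 0.12, adjusted p = 8.16e-07). Against PKR siRNA 1 it was raised too (0.61 ± 0.12, 1.01e-05), though without PKR siRNA 1 replicate 1 that difference was 0.55. With C16 EARS2 was lower than DMSO by adjusted p at both doses (-0.49 ± 0.16 and -0.45 ± 0.16, adjusted p = 0.0159 and 0.0178), with 73.8, 67.6 and 77.7 in DMSO, 61.7, 43.8 and 51.1 at 400 nM and 50.4, 47.5 and 63.0 at 800 nM. FARS2 read 10.3, 12.9 and 8.53 in control siRNA, 17.8, 16.3 and 10.6 after PKR siRNA 1 and 16.9, 17.2 and 26.3 after PKR siRNA 2. Its rise (0.86 ± 0.30, adjusted p = 0.0153) was lost with DESeq2 (0.96, adjusted p = 0.0601), without control siRNA replicate 3 (0.73) and without PKR siRNA 2 replicate 3 (0.66).

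WARS2, NARS2 and CARS2 differed between the 2 siRNAs. NARS2, the asparaginyl enzyme, read 65.7, 51.6 and 62.6 in control siRNA, 46.7, 46.3 and 40.5 after PKR siRNA 1 and 77.6, 87.9 and 71.5 after PKR siRNA 2, which put the siRNAs on opposite sides of control (-0.42 ± 0.15, adjusted p = 0.0207, and 0.40 ± 0.15, 0.0283). The direct difference was 0.81 ± 0.15 (4.87e-06). WARS2 read 12.3, 15.0 and 7.58 in control siRNA, 7.78, 9.07 and 5.79 after PKR siRNA 1 and 16.9, 19.3 and 20.7 after PKR siRNA 2, a direct difference of 1.24 ± 0.33 (adjusted p = 0.000965). WARS2 was tested only because the PKR siRNA 2 libraries carried it past the filter on low values. CARS2 read 47.2, 45.1 and 35.1, then 36.7, 33.6 and 31.8, then 49.7, 57.9 and 49.8 in these 3 groups. Its difference of 0.61 ± 0.18 (adjusted p = 0.00274) fell under 1.5-fold with a pseudocount of 5 (0.56) and without PKR siRNA 1 replicate 3 (0.56) or PKR siRNA 2 replicate 2 (0.54). For CARS and FARSA the direct difference also fell under 1.5-fold without PKR siRNA 2 replicate 1 (-0.57 and -0.58), and for FARSA without PKR siRNA 1 replicate 2 (-0.55). WARS2 shares 118 exon bases, 4.2% of its own, with LOC101929147 on the opposite strand.

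**Figure D5:**
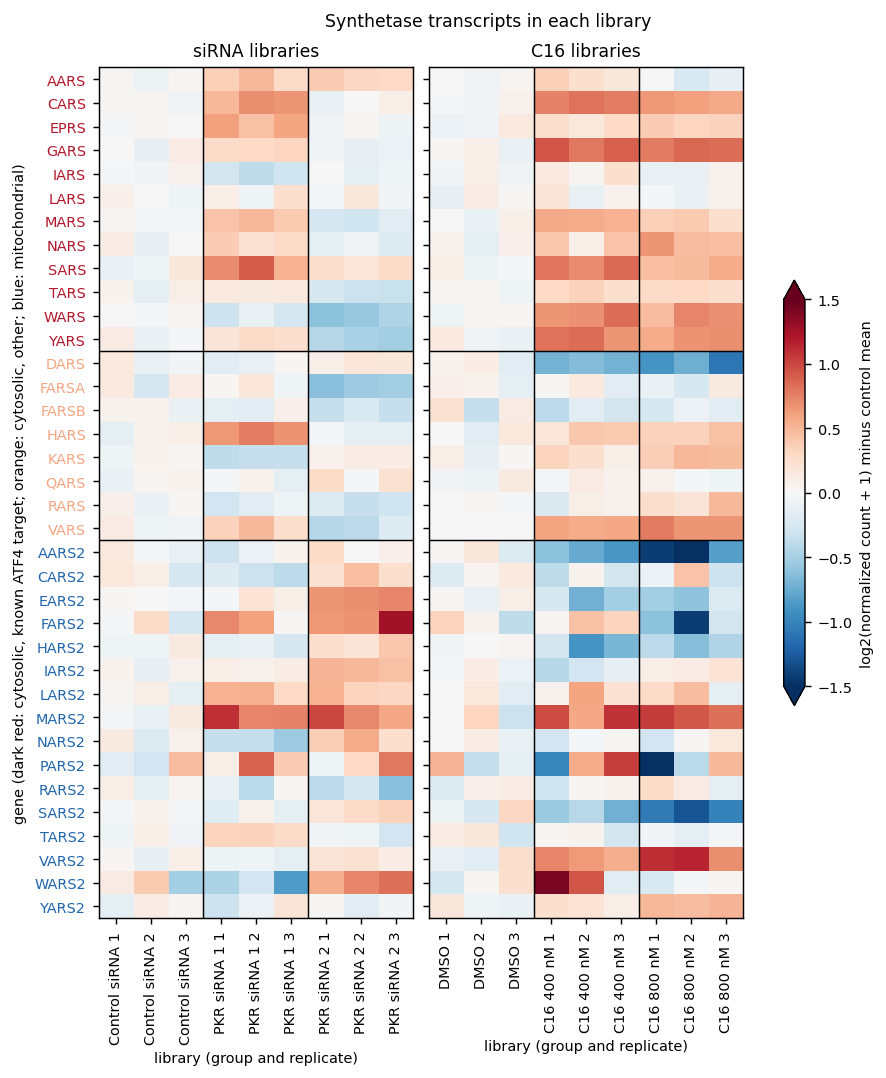
Each synthetase gene (rows, cytosolic known ATF4 targets at the top, other cytosolic genes in the middle and mitochondrial genes at the bottom) in each library (columns), as log2(normalized count + 1) minus the mean of the 3 control libraries of its own run; the colours saturate at 1.5. With PKR siRNA 2 the lower, mitochondrial block is mostly red and the upper block mostly pale or blue, and with C16 the upper block is mostly red.

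Set side by side for 1 amino acid, the cytosolic gene had the higher log2 fold change than its mitochondrial counterpart in 9 of 16 pairs with PKR siRNA 1, 2 of 16 with PKR siRNA 2, 10 of 13 with 400 nM C16 and 9 of 13 with 800 nM C16 (FARSA and FARSB, the 2 subunits of the cytosolic phenylalanyl enzyme, were both paired with FARS2). AARS (0.33 against 0.12 for AARS2) and RARS (-0.29 against -0.43 for RARS2) were the cytosolic genes above their counterparts with PKR siRNA 2, and VARS, MARS and LARS were below theirs at 400 nM C16. MARS2 and LARS2 had the higher value of their pair in all 4 comparisons, and of these MARS2 alone was called.

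Partner genes of the synthetases were counted in the same way. With PKR siRNA 1, 1 of 23 tested was raised, QRSL1, the catalytic subunit of the mitochondrial amidotransferase (0.64 ± 0.15, adjusted p = 0.000281), and none lowered, or 4.35% beside the 8.53% of all genes raised. PKR siRNA 2 raised 3 and lowered 2: GATB (0.91 ± 0.25) and QRSL1 (0.81 ± 0.15) of the same amidotransferase and SEPSECS, of selenocysteine synthesis (0.79 ± 0.29), against AIMP1, a scaffold of the multisynthetase complex (-0.89 ± 0.15), and PTRH2, a peptidyl-tRNA hydrolase (-0.59 ± 0.17). These were 13.0% and 8.70% of 23, near the 10.8% and 12.8% of all genes. AIMP1 read 86.3, 69.8 and 75.8 in control siRNA, 100, 86.2 and 85.9 after PKR siRNA 1 and 46.7, 36.5 and 40.4 after PKR siRNA 2, so that PKR siRNA 2 alone lay below control. With 400 nM C16 only DTD1, an editing enzyme for mischarged D-amino acids (-0.90 ± 0.27), was lowered of 21 tested, and with 800 nM PTRH2 was raised (0.71 ± 0.18) and 4 were lowered. The share lowered was 4.76% at 400 nM, beside 5.45% of all genes, and at 800 nM 4.76% were raised and 19.0% lowered, beside 11.6% and 14.1%. AIMP2, the scaffold that holds DARS in the complex, was the furthest down of these at 64.1, 64.8 and 67.0 in DMSO, 40.4, 53.0 and 46.8 at 400 nM and 35.3, 24.4 and 25.8 at 800 nM (-1.19 ± 0.18 at 800 nM, adjusted p = 1.48e-07). EEF1A1, the elongation factor that takes charged tRNA to the ribosome (-0.60 ± 0.04), GATC (-0.60 ± 0.16) and TARSL2 (-0.59 ± 0.24) were the others.

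Other genes known to be part of the ATF4 program, from a list of 36 outside the synthetases, were mostly raised with PKR siRNA 1 and with both doses of C16. With PKR siRNA 1, 17 of 32 tested (53.1%) were raised and none lowered, with a median of 0.64, beside 8.53% and 12.6% of all genes. PKR siRNA 2 raised 8 (25.0%) and lowered 7 (21.9%), with a median of 0.05, beside 10.8% and 12.8%. C16 at 400 nM raised 22 of 34 (64.7%) and lowered none (median 0.86), beside 7.08% and 5.45%. At 800 nM it raised 20 (58.8%) and lowered 3 (8.82%), with a median of 0.65, beside 11.6% and 14.1%. JDP2 (1.53 ± 0.28), ATF3 (1.32 ± 0.20) and PPP1R15A (1.29 ± 0.12) led with PKR siRNA 1, and ATF3 (1.95 ± 0.18), the cystine transporter SLC7A11 (1.53 ± 0.14) and STC2 (1.52 ± 0.10) with 400 nM C16. At 800 nM the widest changes were those of ATF3 (1.90 ± 0.18), NUPR1 (-1.72 ± 0.28) and GPT2, an alanine aminotransferase (1.51 ± 0.15). NUPR1 (3.27 ± 0.26), DDIT4 (1.82 ± 0.10) and ATF5 (1.36 ± 0.10) were raised with PKR siRNA 2. Among the 7 genes it lowered, and named after their values were seen, were PHGDH, of serine synthesis (-0.86 ± 0.17), and STC2 (-0.75 ± 0.08).

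ATF4 itself did not follow the cytosolic synthetases in every group. It read 286, 248 and 341 normalized counts in control siRNA, 663, 696 and 588 after PKR siRNA 1 and 532, 486 and 513 after PKR siRNA 2, raised by both (1.16 ± 0.07, adjusted p = 2.22e-23, and 0.81 ± 0.07, 6.47e-16). In the C16 run it read 247, 266 and 236 in DMSO, 413, 404 and 397 at 400 nM and 273, 306 and 258 at 800 nM, raised at 400 nM (0.70 ± 0.08, 8.77e-10) and at 0.16 ± 0.08 at 800 nM (0.115). PKR siRNA 2 thus had raised ATF4 mRNA with a median of -0.08 over the 12 cytosolic known ATF4 targets, and 800 nM C16 had an ATF4 mRNA near that of DMSO with a median of 0.42 over them. DDIT3 rose in all 4 comparisons (0.72, 0.83, 1.05 and 0.80), and ASNS, asparagine synthetase, was higher by adjusted p in all 4 without reaching 1.5-fold (0.41, 0.51, 0.46 and 0.23). Of the other eIF2 alpha kinases, EIF2AK3 (PERK) was raised by 800 nM C16 (0.96 ± 0.25) and by both siRNAs (0.76 ± 0.21 and 0.90 ± 0.21), and EIF2AK1 and EIF2AK4 were raised in none. ATF4 is controlled mainly in translation, and neither ATF4 protein nor eIF2 alpha phosphorylation was measured in these libraries. By western blot of PANC-1 cells, the paper reported no change in phosphorylated eIF2 alpha with PKR knockdown or C16. Whether any of these genes had a part in the synthetase changes was not tested.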

How the data were processed

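Total RNA of PANC-1 cells was extracted with TRIzol, and poly(A) libraries (NEBNext Ultra II Directional) were sequenced as 75 bp paired reads on a MiSeq. Reads were mapped by the authors to hg38 with TopHat, assigned to genes with featureCounts and normalized with TMM in TCC, separately for the siRNA and the C16 libraries. The deposited values are a signal: gene counts divided by the authors' size factor of each library. Versions, annotation and strand setting are not given in the sources used here. Division by the value of 1 read recovered whole reads for 100% of values within 0.01, which gave the depth and the reads for count tests.

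Groups and replicates came from the sample labels. The synthetases and the other gene lists were chosen with earlier results of these data known, and the lists were written from memory. Normalized counts were compared on the scale log2(value + 1) with limma 3.58.1 (eBayes with trend, R 4.3.3), two-sided, over all genes with a mean of at least 10 in the 9 libraries of a table (10593 and 9963 genes), and p-values were adjusted by Benjamini-Hochberg over all of them. A call needed an adjusted p under 0.05 and a fold change over 1.5. Per comparison, every member called was named, and values per library were given for the 4 raised and 4 lowered members with the largest change and for members called in at least 2 of 4 comparisons with a control. Up to 4 genes past both thresholds were named from each other list, with ATF4, DDIT3, ASNS and EIF2AK2. The rule chose the 2 promoters printed whole, and the 4 shorter sites were added after their match was seen. The scripts were tested on simulated data. Alternatives were edgeR 4.0.16 (quasi-likelihood) and DESeq2 1.42.0 on the recovered reads, other pseudocounts, low-count filters and scalings, a replicate block, and leaving out each library. Within groups, all 18 pairs of replicates differed by more than sampling noise (chi-square per degree of freedom 1.03 to 1.47), so none was merged. The precision is limited by the depth, and intervals cover the spread between libraries only. Some genes of the other lists are not reported here.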

Additional observations from a re-analysis of the deposited data

How the results depend on the processing

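Over the 39 named changes (37 member calls and EIF2AK2 in 2 comparisons), 696 values were computed under the alternatives, of which 676 kept their direction and their side of both thresholds, 20 kept the direction and missed a threshold, and 0 reversed. With edgeR all 39 were kept, with DESeq2 36, with a pseudocount of 5 37, and with a pseudocount of 0.5, no filter, median-of-ratios scaling or only the compared groups all 39. A minimum mean of 30 kept all 33 that could then be tested, and leaving out 1 library kept 336 of 351. Depth limits the genes with few reads, MARS2, FARS2, PARS2 and WARS2 among them, and AARS2 in the C16 run.

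Replicate numbers did not pair the libraries, since deviations of same-numbered libraries correlated at -0.05 to 0.03 and none of 18 exceeded 0.1. With the number as a replicate block all 39 changes were kept, and calls over all genes went from 904 raised and 1331 lowered to 905 and 1332 with PKR siRNA 1, from 1140 and 1353 to 1136 and 1353 with PKR siRNA 2, and from 1158 and 1403 to 1158 and 1396 at 800 nM.

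Without the fold threshold the counts were, for PKR siRNA 1, 10 cytosolic higher and 2 lower and 2 mitochondrial higher and 1 lower, for PKR siRNA 2, 2, 8, 8 and 1 in that order, and between the siRNAs, 3, 13, 8 and 1. At 400 nM 12 cytosolic genes were then higher and 5 mitochondrial genes lower, at 800 nM 13 and 4, and between the doses 1 cytosolic gene was higher and 3 lower, with 1 mitochondrial gene each way. At 400 nM the mitochondrial genes lowered went from 2 to 1 with a pseudocount of 5 and with a minimum mean of 30, and those raised from 2 to 1 with that minimum and with DESeq2. At 800 nM that minimum left 1 raised and 1 lowered, since MARS2 and AARS2 were no longer tested. The mitochondrial median with PKR siRNA 2 was 0.28 with a pseudocount of 5 and 0.28 with a minimum mean of 30, which also gave 0.27 between the siRNAs and 0.12 between the doses.

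Leaving out 1 library at a time, the cytosolic median ranged from 0.14 to 0.24 with PKR siRNA 1, from -0.12 to -0.044 with PKR siRNA 2, from -0.41 to -0.39 between the siRNAs, from 0.23 to 0.30 at 400 nM and from 0.31 to 0.40 at 800 nM. The mitochondrial median ranged from -0.079 to 0.016 (0.016 without PKR siRNA 1 replicate 1) with PKR siRNA 1, from 0.29 to 0.33 with PKR siRNA 2 and from 0.057 to 0.12 between the doses. The cytosolic genes lowered with PKR siRNA 2 numbered 0 to 2, reaching 1 without control siRNA replicate 2 and 2 without PKR siRNA 2 replicate 3. At 400 nM 1 to 2 mitochondrial genes were raised, with 1 without DMSO replicate 2, and 0 to 3 lowered, with 0 without C16 400 nM replicate 3. Between the doses 0 to 1 mitochondrial genes were lowered, with 1 without replicate 3 of either dose.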
